A study of Mus musculus with 24 samples.

Results

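The genes described here encode the integrin subunits and the laminin chains. They were chosen by symbol, as genes named in the count table as an integrin alpha subunit (Itga), an integrin beta subunit (Itgb) or a laminin alpha, beta or gamma chain (Lama, Lamb, Lamc). The 36 members described, of 25229 genes in the table, are 26 integrin genes (18 alpha and 8 beta subunits) and 10 laminin chain genes. All libraries came from ID8 P53 KO, a mouse ovarian cancer line that lacks p53, so the controls carried this deletion too. Cells were exposed for 6 days to DMSO (the vehicle control), to AU-15330 at 2.5 uM, to cisplatin at 750 nM, or to both agents together (the combination), with 6 libraries for each of the 4 treatments. AU-15330 is a PROTAC, a small molecule that sends SMARCA4 and SMARCA2, the ATPases of the SWI/SNF chromatin remodellers, for degradation, and cisplatin is a platinum drug that crosslinks DNA. The cisplatin concentration is that of the labels, and the study's methods give a different one for this line. The comparisons asked which adhesion receptor and basement membrane genes changed with each agent, and whether the effect of AU-15330 depended on cisplatin.

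Integrins are receptors made of one alpha and one beta subunit. The pair spans the plasma membrane, binds matrix proteins outside the cell and couples to the actin cytoskeleton through talin, kindlin and other adaptors inside. Laminins are trimers of one alpha, one beta and one gamma chain that assemble into the basement membrane, and integrins that hold the Itga3, Itga6 or Itga7 product are their main receptors. In the ovary and peritoneum, these receptors hold epithelial and mesothelial cells on their matrix, and tumour cells use them to attach to the mesothelium.

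Values are given as CPM, that is counts of a gene per 1000000 counts of its library, after scaling of the libraries by TMM. Library totals ranged from 17592588 to 25260009 counts, so that a count of 3, taken as the floor, stood for 0.120 to 0.186 CPM. A gene was tested where it passed the low-count filter of edgeR, and it was called where the adjusted p of edgeR's quasi-likelihood test, corrected over all 12941 tested genes, was under 0.05. The labels do not say whether the 6 replicates were separate cultures, so p-values measure the spread between these libraries. RNA was measured in bulk, where fewer cells of a kind and less RNA per cell cannot be told apart.

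Of the 36 genes, 21 could be tested, 15 of them integrin genes and 6 laminin chain genes. The other 15 stayed near the floor, with a highest count in any library of 2 to 12. They were the collagen receptors Itga1 and Itga2, Itga8, Itga4 and Itga9, all 5 leukocyte alpha subunits (Itgad, Itgae, Itgal, Itgam and Itgax), Itgb6, Lama1, Lama2, Lama4 and Lamc3. None of them was at 0 in every library. In a fit without the low-count filter, 5 of these 15 were called for cisplatin against DMSO (Itga2, Itgal, Itgax, Itgb6 and Lamc3) and 4 for AU-15330 against DMSO (Itga1, Itgal, Lama2 and Lama4), all with more counts than in DMSO, where 36.0% and 50.6% of the 20428 genes in that fit were called. Lamc3, for example, had 7 counts summed over the 6 DMSO libraries and 55 over those with cisplatin (adjusted p = 0.00141), and Lama4 had 0 in DMSO and 21 with AU-15330 (adjusted p = 0.00217). That fit called 2 of the 15 for the combination against cisplatin and 2 against AU-15330, where 47.7% and 25.8% of genes were.

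The labelled cell type was set against marker genes. Krt8, Krt18, Krt19, Wt1 and Msln, markers of epithelium and mesothelium, reached highest counts of 14098 to 40703, whereas Epcam never exceeded 2 counts and Pax8 never exceeded 15, so that these defining markers of epithelium and of Müllerian epithelium were at or near 0 in cells labelled as ovarian cancer. Krt7, of the same list, was low as well, with at most 125 counts and a median of 0.325 CPM. Upk3b ranged from 0.164 to 233 CPM over all libraries, and Krt19 from 4.15 to 2518 CPM. The summed CPM of the 9 markers of this list ranged from 3512 to 5308 in DMSO, from 1018 to 1150 with AU-15330, from 4174 to 4851 with cisplatin and from 1223 to 1403 with the combination. This list therefore moved with AU-15330, as several integrin and laminin genes did, and its part in those results was not tested.

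Expression within each class was concentrated in a few genes. Levels between genes were compared per kilobase of exon (CPM per kb). In DMSO, Itgb1, the shared partner of most alpha subunits, was at 198 ± 19.1 CPM per kb (SD, n = 6), and Itga3 and Itga6, both laminin receptors, were at 124 ± 8.24 and 106 ± 19. Itgb5, a partner of Itgav for vitronectin, was at 102 ± 8.55 CPM per kb. Itga6 did not differ from Itga3 or Itgb5 beyond their spread, whereas Itga3 was above Itgb5 by more than the sum of their SDs. The main laminin chains were Lama5 at 66.6 ± 15, Lamb2 at 59.8 ± 4.84, Lamc1 at 55.5 ± 19.1 and Lamb1 at 28.3 ± 11.1 CPM per kb, the first 3 of which did not differ beyond their spread. Itga5 (36.6 ± 6.24), Itgb3 (22 ± 3.06) and Itgav (13.8 ± 3.37) were the other members above 2 CPM per kb, and all remaining tested members were below 2 CPM per kb. Lama5 supplied 100% of the laminin alpha chain signal per kilobase in DMSO to the precision given, and 99.7% to 99.9% in the other treatments.

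**Figure D1:**
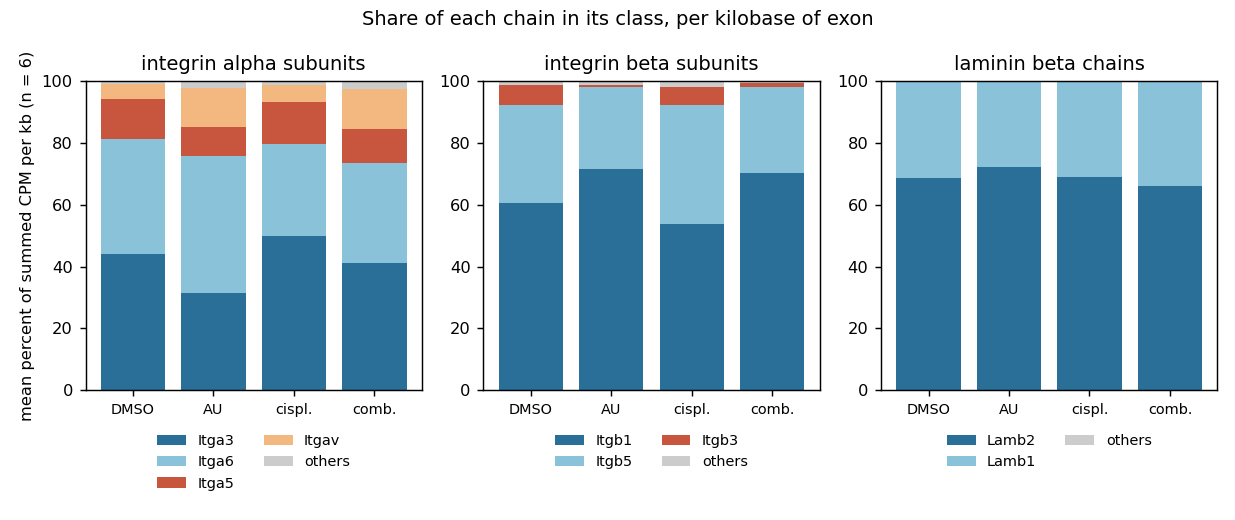
Mean percent of the summed CPM per kb of each class (y axis, n = 6 libraries) held by each named gene under the 4 treatments (x axis), with one panel per class. The share of Itgb3 among beta subunits was 6.76% in DMSO and 0.667% with AU-15330.

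AU-15330 alone changed 12 of the 21 tested members. It raised 4, Itgav, Itga2b, Itgb1 and Itgb8, and lowered 8, Itga3, Itga6, Itga5, Itgb2, Itgb3, Itgb4, Lama5 and Lamc1. Over all genes tested, 36.2% were called higher and 37.2% lower in this comparison. Of the 21 tested members, 7 were called with a log2 fold change of at least 1 in size, where 29.5% of all genes were. The median log2 fold change was -0.05 over the tested members and -0.003 over all genes. Of the 6 tested laminin chain genes, 0 were called higher, with 0 higher at an unadjusted p under 0.05 in edgeR and 0 called higher by DESeq2. Lamb2 was called higher with library totals in place of TMM (log2 fold change 0.21, adjusted p = 0.0340). In replicates 4 to 6 alone, a split chosen after seeing the data, Lamb2 (0.15, adjusted p = 0.0349) and Lamb3 (1.5, adjusted p = 0.0173) were called higher. Lamb1 was at 0.33 there, which is given as a description, with no test, for the reason stated below.

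The combination differed from cisplatin alone in 18 of 21 tested members, 6 higher and 12 lower, against 35.4% of all genes higher and 32.7% lower. Of the 21 tested members, 9 were called with a log2 fold change of at least 1 in size, against 23.7% of all tested genes. These libraries are not those of the comparison of AU-15330 with DMSO. All 12 members called there were also called here, 4 higher and 8 lower in both, and they made up 12 of the 18 members called here. Itga7, Itga10, Itgb5, Itgb7, Lama3 and Lamb2 were the other 6. Lama3 passed the low-count filter only through its cisplatin libraries, so its call had to follow. It is included in the 18 and in the 9. Over all tested genes, 26.9% were called higher in both comparisons and 26.6% lower in both, and 73.0% of the genes called with AU-15330 alone were called in the same direction here. The median log2 fold change was -0.36 over the tested members and 0.039 over all genes.

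**Figure D2:**
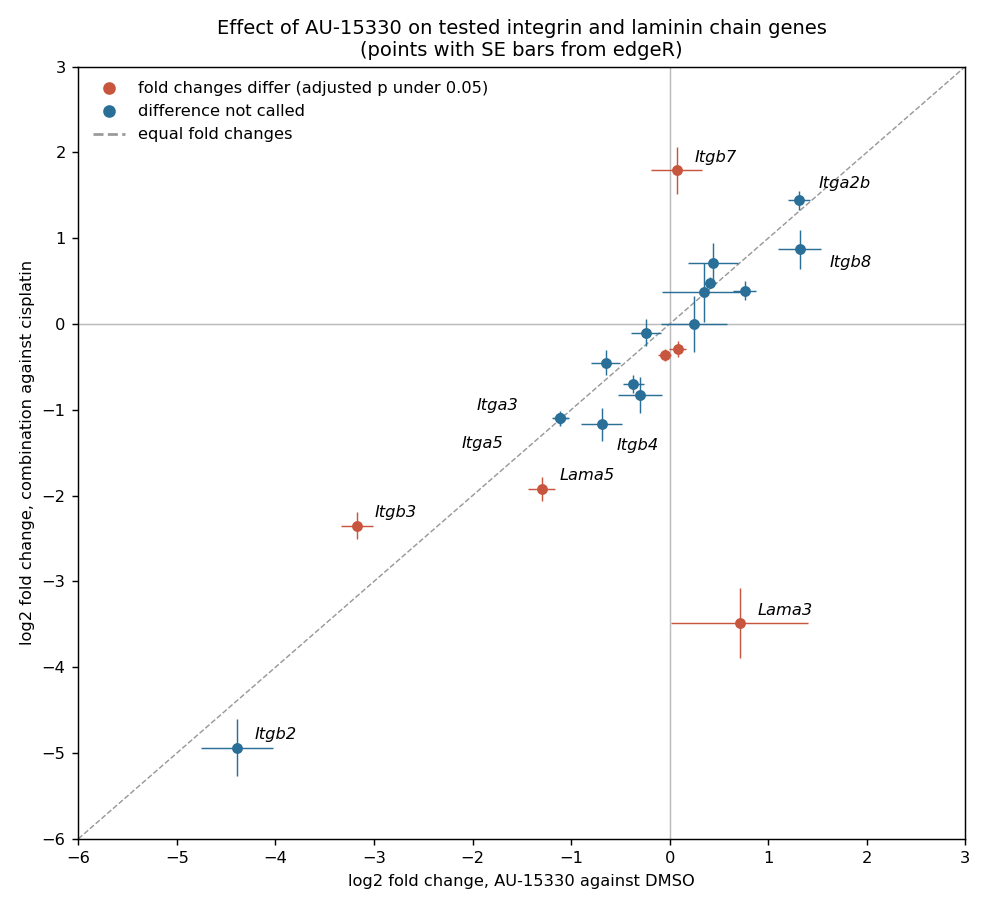
Log2 fold change of the 21 tested members with AU-15330 against DMSO (x axis) and with the combination against cisplatin (y axis), with SE bars from edgeR and the line of equal fold changes. Itgb2 and Itgb3 lie far below 0 on both axes, and Lama3 at 0.71 and -3.49 stands off the line.

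Promoter sequence is shown for the members that were called in both AU-15330 comparisons and have an entry in the RefSeq promoter table of GRCm38.p6. Entries were found for 23 of the 36 genes and 14 of the 21 tested. The 250 bases before the start annotated in RefSeq are given 5′ to 3′ on the strand of the gene. In GENCODE, the minus-strand genes Itgb8, Itga2b and Itga3 begin at 119238802, 102470122 and 95076801. By that annotation the Itgb8 window lies wholly within the gene, as do most of the Itga2b window and part of the Itga3 window. Capitals mark matches to the GC box, GGGCGG, and to the TEAD motif, GGAATG, on either strand. The AP-1 motif, TGANTCA on either strand, and the TATA box, TATAAA on the strand of the gene, were searched too and are absent from these windows. For Itga3 the outer of its annotated starts is shown. The first 3 sequences belong to members that fell with AU-15330.
Lama5, chr2:180225860-180226109, minus strand: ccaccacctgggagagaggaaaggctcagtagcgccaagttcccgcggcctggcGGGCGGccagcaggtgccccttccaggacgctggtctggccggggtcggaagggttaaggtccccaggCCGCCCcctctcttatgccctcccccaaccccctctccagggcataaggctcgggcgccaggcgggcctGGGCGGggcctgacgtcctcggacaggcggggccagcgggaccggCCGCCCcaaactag
Itga3, chr11:95076715-95076964, minus strand: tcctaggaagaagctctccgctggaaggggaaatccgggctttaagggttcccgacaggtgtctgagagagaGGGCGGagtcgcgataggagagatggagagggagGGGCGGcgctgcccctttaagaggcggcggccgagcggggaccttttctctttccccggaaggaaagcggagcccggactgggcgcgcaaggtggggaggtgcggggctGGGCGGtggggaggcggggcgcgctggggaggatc
Itga5, chr15:103366792-103367041, minus strand: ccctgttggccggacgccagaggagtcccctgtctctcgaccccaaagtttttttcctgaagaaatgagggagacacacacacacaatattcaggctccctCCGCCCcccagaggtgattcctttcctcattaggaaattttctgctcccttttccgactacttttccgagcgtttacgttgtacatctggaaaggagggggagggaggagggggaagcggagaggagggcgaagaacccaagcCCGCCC
The next 4 belong to members that rose with AU-15330.
Itgb1, chr8:128685404-128685653, plus strand: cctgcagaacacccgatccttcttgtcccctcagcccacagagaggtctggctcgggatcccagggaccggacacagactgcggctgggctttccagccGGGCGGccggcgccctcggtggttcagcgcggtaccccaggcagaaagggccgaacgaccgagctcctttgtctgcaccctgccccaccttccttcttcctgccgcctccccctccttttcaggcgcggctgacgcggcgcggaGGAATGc
Itgav, chr2:83724147-83724396, plus strand: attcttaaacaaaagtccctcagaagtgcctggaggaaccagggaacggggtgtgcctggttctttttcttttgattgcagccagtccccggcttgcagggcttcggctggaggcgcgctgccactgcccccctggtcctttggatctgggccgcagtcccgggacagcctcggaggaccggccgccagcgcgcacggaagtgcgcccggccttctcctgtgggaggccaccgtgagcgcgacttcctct
Itga2b, chr11:102469884-102470133, minus strand: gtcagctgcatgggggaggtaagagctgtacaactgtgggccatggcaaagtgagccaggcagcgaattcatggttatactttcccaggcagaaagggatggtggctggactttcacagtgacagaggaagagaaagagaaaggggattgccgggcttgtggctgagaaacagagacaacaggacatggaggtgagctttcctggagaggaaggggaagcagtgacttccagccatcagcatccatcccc
Itgb8, chr12:119238277-119238526, minus strand: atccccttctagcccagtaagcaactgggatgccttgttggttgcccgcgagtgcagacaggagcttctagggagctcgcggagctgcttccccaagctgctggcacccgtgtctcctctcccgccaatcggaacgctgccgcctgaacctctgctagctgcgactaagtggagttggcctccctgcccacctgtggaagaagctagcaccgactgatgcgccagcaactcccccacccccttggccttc
The GC box was found 4 times in the window of Lama5, 3 times in that of Itga3, 2 times in that of Itga5 and 1 time in that of Itgb1, and in none of those of Itgav, Itga2b and Itgb8. Itgb5 and Lamb1, not called with AU-15330 alone and not shown, held it 3 and 2 times. Itga6, Itgb2, Itgb3, Itgb4 and Lamc1, which also fell, have no entry. The windows therefore do not compare members that fell with members that rose. Over all 32851 promoters in the table, 32.7% held it, and 7 of the 16 windows of the 14 tested members did. The TEAD motif, found at the very end of the Itgb1 window, was in 3 of the 16 windows and in 12.6% of all promoters. The AP-1 motif was in none of the 16 and in 6.75% of all, and the TATA box in none of the 16 and in 7.59% of all. These are matches of letters, with no measurement of binding.

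Among beta subunits, Itgb3, the partner of Itgav in a vitronectin and osteopontin receptor and of Itga2b in the platelet fibrinogen receptor, fell with AU-15330. Its lowest, median and highest library were at 111, 125 and 157 CPM in DMSO and at 10.5, 13.2 and 21.3 CPM with AU-15330. The log2 fold change was -3.17 (SE 0.161, adjusted p = 1.62e-15). With cisplatin the libraries lay at 78.9, 107 and 127 CPM, and with the combination at 15.9, 21.4 and 25.6 CPM, a log2 fold change of -2.35 (SE 0.155, adjusted p = 4.77e-13). No library with AU-15330, with or without cisplatin, reached the lowest library without it. Itgb3 lies on chromosome 11 (104608000 to 104670476, plus strand), 2137.9 kb from Itga2b with 41 protein-coding genes between them.

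Itga2b moved in the other direction. Its libraries lay at 5.46, 5.71 and 6.36 CPM in DMSO and at 11.2, 14.7 and 16.7 CPM with AU-15330, a log2 fold change of 1.31 (SE 0.113, adjusted p = 7.06e-11). With cisplatin they were at 4.26, 4.95 and 5.56 CPM, and with the combination at 10.5, 13.2 and 16.9 CPM, a log2 fold change of 1.44 (SE 0.113, adjusted p = 1.66e-11). The groups with and without AU-15330 did not overlap. Outside this gene, the megakaryocyte markers stayed low: Gp9 had no counts in any library, Gp1bb and Pf4 at most 2 and 5, and Ppbp at most 14.

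Itgb2, the beta subunit of leukocyte integrins, was low in DMSO, rose with cisplatin and was nearly lost with AU-15330. The lowest, median and highest library were at 2.91, 5.48 and 8.49 CPM in DMSO, 0.206, 0.289 and 0.313 CPM with AU-15330 (5 to 7 counts), 10.8, 14.1 and 14.7 CPM with cisplatin, and 0, 0.400 and 0.837 CPM with the combination (0 to 18 counts). The log2 fold change was -4.39 for AU-15330 against DMSO (SE 0.367, adjusted p = 4.44e-11), 1.19 for cisplatin against DMSO (SE 0.251, adjusted p = 0.000300) and -4.94 for the combination against cisplatin (SE 0.334, adjusted p = 7.99e-13). None of these pairs of groups overlapped. Its leukocyte alpha partners were near 0, with at most 10 counts for Itgal, 4 for Itgam, 6 for Itgax and 2 for Itgad. Of 6 leukocyte markers, 5 were below the filter, with at most 5 counts for Ptprc, 4 for Lyz2 and Csf1r, and 2 for Cd3e and Adgre1. The tested one, Cd68, ranged from 6.36 to 52.9 CPM over the 24 libraries, and the summed list was at 6.46 to 19 CPM in DMSO, 16.8 to 53.0 with AU-15330, 6.94 to 13.2 with cisplatin and 24 to 42.5 with the combination, by group medians the reverse of the order of Itgb2. The endothelial list, of which Pecam1 was tested and Cdh5, Kdr and Tek had at most 9 counts, followed the order of Itgb2 by group medians, with summed CPM of 2.87 to 4.28, 0.261 to 0.763, 8.51 to 12.8 and 0.483 to 1.20 in DMSO, AU-15330, cisplatin and the combination.

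Itgb8, which pairs with Itgav to release active TGF-beta, rose with AU-15330. Its libraries were at 7.86, 14.3 and 23.1 CPM in DMSO and at 30.9, 35.0 and 48.3 CPM with AU-15330, with no overlap (log2 fold change 1.32, SE 0.221, adjusted p = 7.49e-06). Cisplatin libraries lay at 6.13, 10.4 and 14.1 CPM and those of the combination at 9.13, 19.7 and 22.2 CPM, which overlapped (log2 fold change 0.87, SE 0.224, adjusted p = 0.00134). The combination was below AU-15330 alone, again with no overlap (log2 fold change -1.03, SE 0.218, adjusted p = 0.000479). Itgav itself, the common partner of Itgb3, Itgb5 and Itgb8, went from 148 ± 36.2 CPM in DMSO to 251 ± 14.5 with AU-15330 (log2 fold change 0.76, SE 0.117, adjusted p = 2.31e-06) and from 179 ± 16.6 to 235 ± 28.7 between cisplatin and the combination (log2 fold change 0.39, SE 0.116, adjusted p = 0.00447). Itgav libraries of cisplatin and the combination overlapped, and this call was lost in replicates 4 to 6 alone (0.28, adjusted p = 0.0530). That of Itgb8 in the same comparison was lost in replicates 1 to 3 alone (0.91, adjusted p = 0.0772). The annotation places Gm13684 on the opposite strand over 634 bases of Itgav exons.

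Itgb1, the most abundant subunit, rose by a smaller factor. It was at 806 ± 78.1 CPM in DMSO, 1071 ± 51.7 with AU-15330, 692 ± 36.3 with cisplatin and 969 ± 35.4 with the combination, with log2 fold changes of 0.41 and 0.48 for AU-15330 without and with cisplatin (adjusted p = 2.18e-06 and 1.87e-07). The groups with and without AU-15330 did not overlap in either pair. Itgb5 was not called with AU-15330 alone (362 ± 30.4 and 350 ± 14.4 CPM, log2 fold change -0.05, adjusted p = 0.499), and it fell when AU-15330 was added to cisplatin (431 ± 45.4 and 337 ± 14.4 CPM, log2 fold change -0.36, adjusted p = 4.75e-05).

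**Figure D3:**
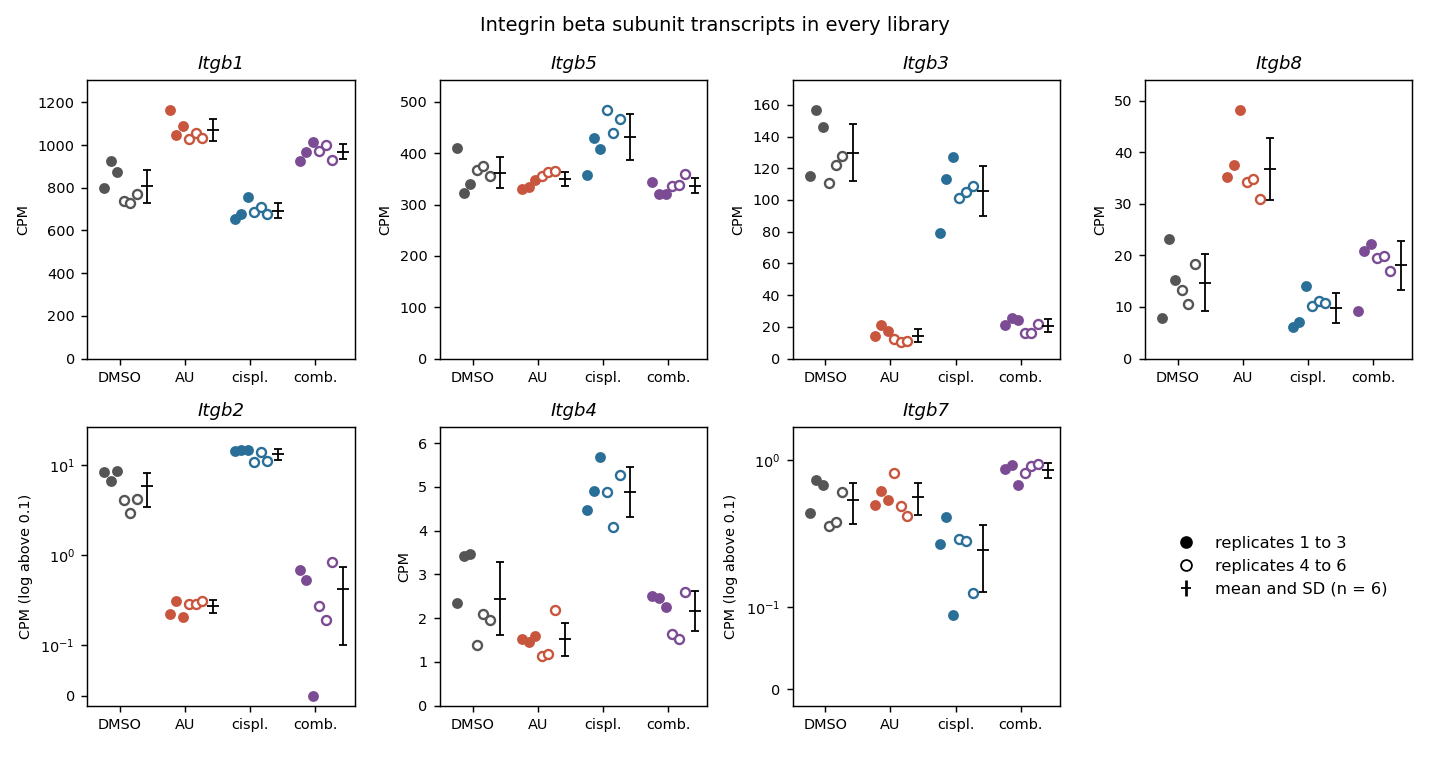
CPM (y axis) of the 7 tested beta subunit genes in the 24 libraries by treatment (x axis), with filled points for replicates 1 to 3, open points for replicates 4 to 6, and the mean with SD; the axes of Itgb2 and Itgb7 are logarithmic above 0.1. Itgb3 and Itgb2 are low in all 12 libraries that received AU-15330, and Itgb1 is higher in them than in the matching 12.

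Both abundant alpha subunits of laminin receptors were called lower with AU-15330, Itga6 by less and not in replicates 4 to 6 alone. Itga3 libraries were at 619, 718 and 750 CPM in DMSO and at 308, 328 and 342 CPM with AU-15330, and at 654, 878 and 998 CPM with cisplatin and 383, 402 and 422 CPM with the combination. The groups did not overlap, with log2 fold changes of -1.11 (SE 0.0770, adjusted p = 1.01e-12) and -1.10 (SE 0.0769, adjusted p = 1.71e-12). Itga6 was at 960 ± 172 CPM in DMSO and 741 ± 79.2 with AU-15330, which overlapped (log2 fold change -0.37, SE 0.106, adjusted p = 0.00269; -0.64 in replicates 1 to 3, -0.12 with the call lost, adjusted p = 0.143, in replicates 4 to 6, and -0.24 without replicate 2), and at 810 ± 89.3 with cisplatin and 500 ± 60.4 with the combination, which did not (log2 fold change -0.70, SE 0.106, adjusted p = 2.28e-06). Itga7, the muscle laminin receptor, was low, at 1.23 ± 0.639 CPM in DMSO, 1.67 ± 0.409 with AU-15330, 1.86 ± 0.407 with cisplatin and 3.05 ± 0.232 with the combination. It was higher in the combination than in cisplatin (log2 fold change 0.71, adjusted p = 0.00866) and than in AU-15330 (0.88, adjusted p = 0.00403). With AU-15330 alone it was not called (0.44, adjusted p = 0.124), except without replicate 3 (0.81, adjusted p = 0.00731), with library totals in place of TMM (0.57, adjusted p = 0.0417) and in replicates 4 to 6 alone (1.33, adjusted p = 0.000767).

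Itga5, which with Itgb1 forms the main fibronectin receptor, also fell. Its libraries were at 155, 165 and 224 CPM in DMSO and 78.7, 82.3 and 89.7 with AU-15330, and at 166, 210 and 217 CPM with cisplatin and 92.2, 94.3 and 99.1 with the combination. These groups did not overlap, and the log2 fold changes were -1.11 (SE 0.0855, adjusted p = 8.46e-12) and -1.10 (SE 0.0853, adjusted p = 1.26e-11). As a share of the summed alpha subunit signal per kilobase, Itga3 went from 44.0% ± 2.90 in DMSO to 31.3% ± 2.10 with AU-15330, Itga5 from 12.9% ± 1.17 to 9.21% ± 0.696 and Itgav from 4.82% ± 0.664 to 12.7% ± 0.737 (SD, n = 6). Itga6, though called lower, went up as a share, from 37.3% ± 2.28 to 44.5% ± 3.29. The summed alpha subunit level was 284 ± 34.2 CPM per kb in DMSO, 184 ± 7.10 with AU-15330, 302 ± 30.5 with cisplatin and 172 ± 6.84 with the combination. The summed beta subunit level was 325 ± 18.4, 367 ± 10.4, 315 ± 18.4 and 338 ± 6.41 CPM per kb in the same order. These shares and sums were not tested.

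**Figure D4:**
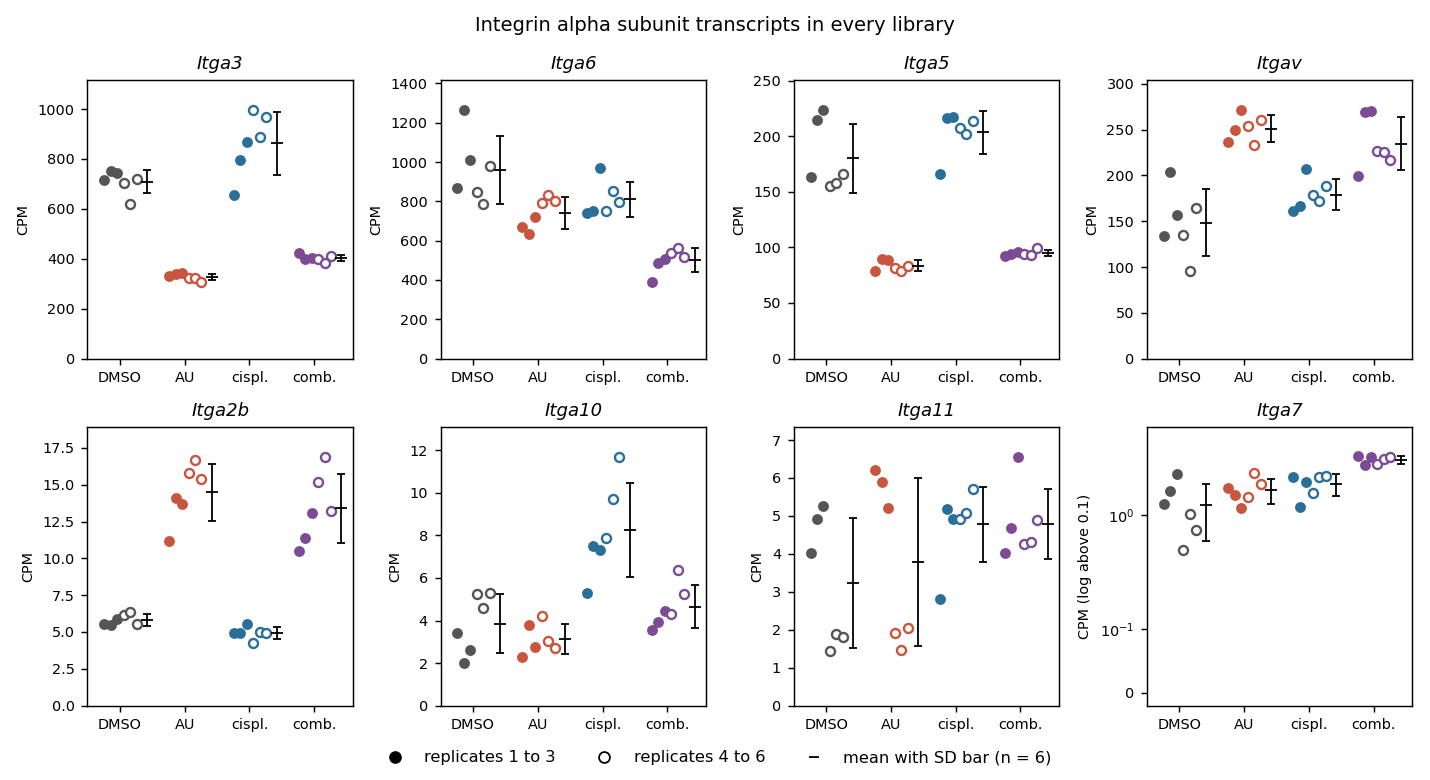
CPM (y axis) of the 8 tested alpha subunit genes in the 24 libraries by treatment (x axis), with filled points for replicates 1 to 3, open points for replicates 4 to 6, and the mean with SD; the axis of Itga7 is logarithmic above 0.1. Itga3 and Itga5 are lower, and Itga2b higher, in every library with AU-15330 than in any without it.

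Lamc1, the gamma chain of most laminins, fell with AU-15330. It was at 459 ± 158 CPM in DMSO and 293 ± 27.9 with AU-15330, which overlapped (log2 fold change -0.65, SE 0.145, adjusted p = 0.000283), and at 355 ± 46.8 with cisplatin and 260 ± 18.5 with the combination, which did not (log2 fold change -0.45, SE 0.145, adjusted p = 0.00800).

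Lama5, the alpha chain of the laminins in most adult basement membranes, fell with AU-15330 in both settings. Its libraries were at 548, 797 and 983 CPM in DMSO and at 258, 309 and 358 CPM with AU-15330, with no overlap (log2 fold change -1.30, SE 0.138, adjusted p = 4.43e-09). They were at 586, 933 and 1094 CPM with cisplatin and at 202, 233 and 259 CPM with the combination, again with no overlap (log2 fold change -1.92, SE 0.141, adjusted p = 4.12e-12). Lamb2, the beta chain of the trimer with Lama5 and Lamc1 found in vessels and kidney, was not called with AU-15330 alone (364 ± 29.4 and 385 ± 44.1 CPM, log2 fold change 0.08, adjusted p = 0.422), and it fell from cisplatin to the combination (307 ± 47.4 and 252 ± 14.9 CPM, log2 fold change -0.29, adjusted p = 0.00713).

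**Figure D5:**
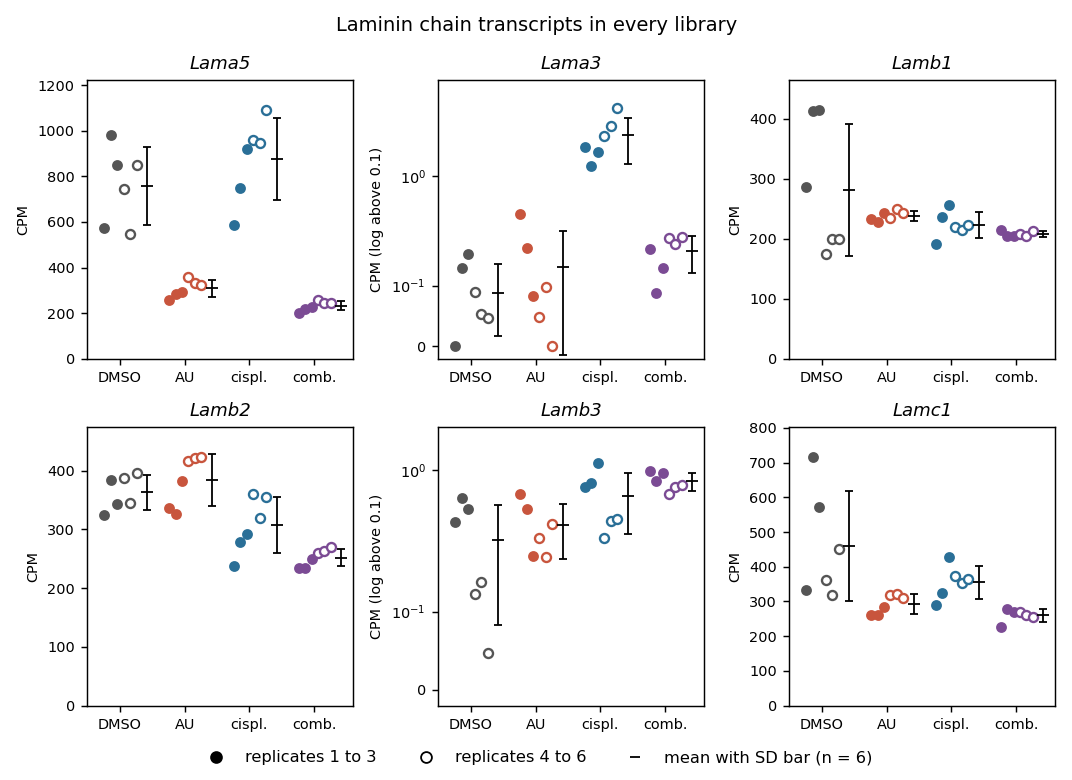
CPM (y axis) of the 6 tested laminin chain genes in the 24 libraries by treatment (x axis), with filled points for replicates 1 to 3, open points for replicates 4 to 6, and the mean with SD; the axes of Lama3 and Lamb3 are logarithmic above 0.1. Lama5 is lower in every library with AU-15330 than in any without it, Lama3 exceeds 1 CPM in cisplatin libraries, and the 3 filled DMSO points of Lamb1 lie above its 3 open ones.

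Cisplatin alone changed 13 of the 21 tested members, 8 higher and 5 lower, where 26.0% of all genes were called higher and 25.7% lower. With library totals in place of TMM, the split was 10 higher and 2 lower. With the replicate number as a block it was 11 higher and 7 lower. The calls gained with the block were Itga5 (log2 fold change 0.18), Itgav (0.29) and Itga11 (0.71), higher, and Itga6 (-0.25) and Itgb3 (-0.29), lower. Of the 21 tested members, 5 were called with a log2 fold change of at least 1 in size, against 13.4% of all genes. Itgb4, at 1.00 after rounding, was just under 1 and is not among them. Lama3 is included in the 13 and in the 5, though its call had to follow from the filter, as described below. The median was 0.21 over the tested members and -0.004 over all genes. The members that rose were Itga3, Itga7, Itga10, Itgb2, Itgb4, Itgb5, Lama3 and Lamb3, and those that fell were Itgb1, Itgb7, Itgb8, Lamb2 and Lamc1.

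Lama3, the alpha chain of a laminin that anchors epithelia, was seen above 1 CPM with cisplatin and in no other treatment. It had 0 to 4 counts per library in DMSO, 0 to 10 with AU-15330, 27 to 103 with cisplatin and 2 to 6 with the combination. In CPM the lowest, median and highest cisplatin library were at 1.23, 2.07 and 4.24, and the DMSO libraries at 0, 0.0717 and 0.193. No library of another treatment reached the lowest cisplatin library. Lama3 was the one tested member that passed the low-count filter only through one treatment, cisplatin, where it was high, so its calls against cisplatin had to follow and are given as values, with no test. It is included in the counts of called members. Lamb3, the beta chain that assembles with the Lama3 product, was at 0.323 ± 0.241 CPM in DMSO (1 to 13 counts) and 0.655 ± 0.302 with cisplatin (8 to 25 counts), which overlapped (log2 fold change 1.01, adjusted p = 0.0355). This call was lost in 5 of the 6 fits that each left out one replicate number, with adjusted p of 0.0583 to 0.0875, and in replicates 1 to 3 (0.74, adjusted p = 0.148).

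Itgb4, which pairs with Itga6 to anchor epithelial cells to the basement membrane, rose with cisplatin. Its libraries were at 1.39, 2.23 and 3.47 CPM in DMSO and at 4.08, 4.89 and 5.69 CPM with cisplatin, with no overlap (log2 fold change 1.00, SE 0.194, adjusted p = 0.000120). With AU-15330 they were at 1.14, 1.49 and 2.19 CPM, overlapping DMSO (log2 fold change -0.69, SE 0.210, adjusted p = 0.00469, but -0.29 and adjusted p = 0.403 in replicates 4 to 6), and with the combination at 1.53, 2.35 and 2.60 CPM, below every cisplatin library (log2 fold change -1.17, SE 0.194, adjusted p = 7.73e-06). B230344G16Rik overlaps 537 bases of Itgb4 exons on the opposite strand.

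Itga10, a collagen receptor of cartilage, also rose with cisplatin. The libraries were at 2.00, 3.99 and 5.30 CPM in DMSO and at 5.28, 7.70 and 11.7 CPM with cisplatin, which touched at their ends (log2 fold change 1.09, SE 0.217, adjusted p = 0.000155). With AU-15330 they were at 2.30, 2.91 and 4.19 CPM, and with the combination at 3.55, 4.39 and 6.37 CPM, lower than with cisplatin (log2 fold change -0.83, SE 0.213, adjusted p = 0.00131). Itga10 shares 1739 exonic bases with Gm42957 on the same strand, so its counts are uncertain. The summed CPM of the 4 fibroblast markers, mainly Dcn, moved in the same direction with cisplatin. It was 19.2 to 41.7 in DMSO, 44.9 to 69.8 with AU-15330, 146 to 224 with cisplatin and 48.4 to 81.1 with the combination. Thy1 added at most 4 counts and Lum had a median of 0.233 CPM, so the sum says little of the markers other than Dcn. The part of these markers in the Itga10 result was not tested. Itga11, another collagen receptor, was called in none of the 5 comparisons by edgeR or DESeq2, with an unadjusted p under 0.05 in 0 of them over all 6 libraries (3.22 ± 1.71, 3.79 ± 2.21, 4.77 ± 1.00 and 4.79 ± 0.921 CPM in DMSO, AU-15330, cisplatin and the combination). With cisplatin its log2 fold change was 0.57 (adjusted p = 0.155), and it was called with the replicate number as a block (0.71, adjusted p = 0.0431) and with a term for replicates 1 to 3 against 4 to 6 (0.72, adjusted p = 0.0316). It was -0.15 in replicates 1 to 3 (adjusted p = 0.690) and 1.61 in replicates 4 to 6 (adjusted p = 1.63e-06). The combination against AU-15330 gave -0.22 and 1.29 in replicates 1 to 3 and 4 to 6 (adjusted p = 0.573 and 3.46e-05).

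The smaller changes with cisplatin were those of Itga3 (log2 fold change 0.28, adjusted p = 0.00302), Itgb5 (0.25, adjusted p = 0.00317), Itga7 (0.61, adjusted p = 0.0454), Itgb1 (-0.22, adjusted p = 0.00508), Lamb2 (-0.24, adjusted p = 0.0267), Lamc1 (-0.37, adjusted p = 0.0340) and Itgb8 (-0.58, adjusted p = 0.0342). All of them overlapped DMSO. The rises were 0.06, 0.15 and 0.03 for Itga3, Itgb5 and Itga7 in replicates 1 to 3 (adjusted p = 0.668, 0.310 and 0.955) and 0.47, 0.33 and 1.39 in replicates 4 to 6 (adjusted p = 2.62e-05, 0.000356 and 0.000742). Itgb8 was not called in replicates 1 to 3 (-0.78, adjusted p = 0.163), and Itgb1, Lamb2 and Lamc1 were not called in replicates 4 to 6 (-0.12, -0.14 and -0.07, adjusted p = 0.0605, 0.0715 and 0.542). Leaving out one replicate number ended the call of Itga7 for replicates 1, 4, 5 and 6 (adjusted p of 0.124 to 0.210), of Lamb2 for replicates 2 and 3 (0.0979 and 0.0832), of Lamc1 for replicates 2, 3 and 6 (0.0693 to 0.279) and of Itgb8 for replicates 2, 4 and 6 (0.0644 to 0.259). Without replicate 2 the log2 fold change of Lamc1 was -0.17 and that of Itgb8 -0.33. Library totals in place of TMM ended the calls of Itgb8, Lamb2 and Lamc1 (adjusted p = 0.0597, 0.105 and 0.0759). The fit without the low-count filter ended that of Itga7 (adjusted p = 0.0755). Itgb7, a lymphocyte homing subunit measured at 2 to 21 counts per library, fell with cisplatin (0.530 ± 0.161 and 0.243 ± 0.118 CPM, log2 fold change -1.11, adjusted p = 0.00248, but adjusted p = 0.0504 and 0.0841 in replicates 1 to 3 and 4 to 6) and was higher in the combination (0.853 ± 0.0984 CPM) than with cisplatin (log2 fold change 1.79, adjusted p = 2.24e-06).

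The combination differed from AU-15330 alone in 10 members, 6 higher and 4 lower, against 22.2% of all genes higher and 19.5% lower. Of the 21 tested members, 2 (Lamb3 and Itgb8) were called with a log2 fold change of at least 1 in size, a share near the 7.67% of all tested genes. The median was 0.18 over the tested members and 0.006 over all genes. Itga3, Itga7, Itga10, Itgb3, Itgb4 and Lamb3 were higher, and Itga6, Itgb8, Lama5 and Lamb2 were lower. Lamb2 and Itga6 showed the clearest decreases among abundant members, with log2 fold changes of -0.61 (adjusted p = 6.51e-06) and -0.57 (adjusted p = 0.000122) and no overlap. Itgb3 was higher by 0.52 (adjusted p = 0.00879), with overlapping groups, and this call was lost without replicate 6 (0.44, adjusted p = 0.0608). The calls of Itgb4 (0.52, adjusted p = 0.0494) and Itga10 (0.57, adjusted p = 0.0445) were close to the threshold, and that of Itgb4 was lost without any single replicate number (adjusted p of 0.0559 to 0.162). That of Itga10 was lost without replicate 1, 3, 5 or 6 (0.0695 to 0.183), and that of Lamb3 (1.03, adjusted p = 0.0268) without replicate 3 or 5 (0.0876 and 0.0806).

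Whether AU-15330 acted differently with and without cisplatin was tested as an interaction. It was called in 6 members, 2 higher and 4 lower, against 17.9% of all genes higher and 15.8% lower. Of the 21 tested members, 2 (Itgb7 and Lama3) were called with a size of at least 1 on the log2 scale, a share near the 10.3% of all tested genes, and the median was -0.25 over the tested members and 0.006 over all genes. For Itgb3 the fall was smaller with cisplatin, by 0.82 on the log2 scale (SE 0.213, adjusted p = 0.00419). For Lama5 the fall was larger with cisplatin, by a difference of -0.62 (SE 0.192, adjusted p = 0.0146). Itgb7 (1.71, adjusted p = 0.00111) rose from its cisplatin level. Lama3 (-4.20) is counted among the 6 but entered the test through its cisplatin libraries alone. The differences for Itgb5 (-0.30, adjusted p = 0.0158) and Lamb2 (-0.37, adjusted p = 0.0283) were small. Without replicate 4 or without replicate 5 the calls of Itgb5, Lama5 and Lamb2 were lost, which left 3 calls (adjusted p of 0.0507 to 0.107). The call of Itgb5 was also lost without replicate 2 or 6 (0.0565 and 0.0554), and that of Lamb2 without replicate 3 or 6 (0.0502 and 0.0681). In replicates 1 to 3 alone, Itgb3, Itgb5, Itgb7, Lama5 and Lamb2 were not called, with adjusted p of 0.0630 to 0.499. For Itga3 and Itga5 the difference was 0.02 (SE 0.108) and 0.01 (SE 0.119), and it was not called.

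The libraries of one treatment were not uniform. Replicates 1 to 3 lay wholly above replicates 4 to 6 in 7 of the 21 tested members in DMSO and wholly below in 1, where 11.6% and 10.2% of all tested genes did. With AU-15330 this held for 4 and 6 members (16.2% and 16.3% of all genes), with cisplatin for 2 and 6 (13.4% and 17.5%) and with the combination for 1 and 5 (9.02% and 9.94%). The labels give no reason for this split. Lamb3 was higher in replicates 1 to 3 in DMSO, cisplatin and the combination, and Itga11 was higher there in DMSO and AU-15330. Lamb2 and Lama5 were lower in replicates 1 to 3 with AU-15330, cisplatin and the combination. The interaction of Lama5 was -0.30 in replicates 1 to 3 (adjusted p = 0.499) and -0.96 in replicates 4 to 6 (adjusted p = 0.000284). The fall of Itgb3 with AU-15330 was a log2 fold change of -3.00 in replicates 1 to 3 and of -3.41 in replicates 4 to 6 (adjusted p = 2.85e-08 and 1.38e-12).

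Lamb1, the beta chain of the broadly expressed laminins, is named here because of this split, seen in its values. Over 6 libraries it was called in none of the 5 comparisons by edgeR or DESeq2, with an unadjusted edgeR p under 0.05 in 1 of them. Its DMSO libraries were at 286, 413 and 415 CPM in replicates 1 to 3 and at 175, 199 and 199 CPM in replicates 4 to 6, whereas all AU-15330 libraries lay between 227 and 249 CPM. In replicates 1 to 3 it was lower with AU-15330 than with DMSO (log2 fold change -0.67), and in replicates 4 to 6 it was higher (0.33). With cisplatin the values were -0.71 and 0.18. These are given as a description, with no test, since the split of the DMSO libraries for which Lamb1 is named sets the opposite signs. Lamc1 in DMSO also ranged widely, from 318 to 717 CPM, and its change with AU-15330 was -1.01 in replicates 1 to 3 (adjusted p = 0.00148) and -0.26 in replicates 4 to 6 (adjusted p = 0.0147).

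The genes that work with integrins were taken from lists of adaptors, matrix ligands and basement membrane partners. These lists were chosen with earlier results of these data known. Their shares beside those of all genes are therefore descriptions, with no test of the lists. Of the adhesion adaptors, 26 of 28 were tested. With AU-15330, 7 rose and 16 fell, with cisplatin 16 rose and none fell (10 did not pass the test, 0 were lower at an unadjusted edgeR p under 0.05 and 0 were called lower by DESeq2), and from cisplatin to the combination 3 rose and 13 fell. Over all tested genes, 36.2% were called higher and 37.2% lower with AU-15330, 26.0% and 25.7% with cisplatin, and 35.4% and 32.7% from cisplatin to the combination, against 26.9% and 61.5%, 61.5% and 0%, and 11.5% and 50.0% of these adaptors. The medians of their log2 fold changes were -0.28, 0.31 and -0.19, and those of all genes -0.003, -0.004 and 0.039. Nedd9, a scaffold of focal adhesion kinase signalling, fell from 193 ± 27.4 to 31.0 ± 4.46 CPM with AU-15330 (log2 fold change -2.63, adjusted p = 2.87e-17) and from 306 ± 32.6 to 41.0 ± 5.19 CPM from cisplatin to the combination (-2.90, adjusted p = 9.15e-18). Tns1, a tensin that links integrins to actin, had log2 fold changes of -1.64 (adjusted p = 3.38e-10) and -1.74 (adjusted p = 1.21e-10). Pxn, which encodes paxillin, rose from 350 ± 30.3 to 553 ± 75.4 CPM with AU-15330 (0.66, adjusted p = 2.18e-07) and by 0.76 from cisplatin to the combination, and the talin gene Tln2 rose by 0.67 and 0.44 in the same units. With cisplatin, Ptk2b, a kinase related to focal adhesion kinase, rose from 0.453 ± 0.248 to 5.12 ± 1.42 CPM (3.47, adjusted p = 2.95e-10), and Actn1, an alpha-actinin, from 285 ± 28.2 to 590 ± 46.6 CPM (1.05, adjusted p = 2.32e-11).

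Of the 20 matrix ligands, 14 were tested. With AU-15330, 2 rose and 11 fell, with cisplatin 9 rose and 2 fell, and from cisplatin to the combination 3 rose and 10 fell, with medians of -1.15, 0.76 and -1.39 where those of all genes were -0.003, -0.004 and 0.039. These were 14.3% higher and 78.6% lower, against 36.2% and 37.2% of all genes, 64.3% and 14.3%, against 26.0% and 25.7%, and 21.4% and 71.4%, against 35.4% and 32.7%. Ccn1, a secreted ligand of Itgav integrins, fell from 287 ± 89.9 to 42.2 ± 12.7 CPM with AU-15330 (log2 fold change -2.76, adjusted p = 4.34e-12), and the tenascin gene Tnc fell from 12.2 ± 1.35 to 2.46 ± 1.10 (-2.30, adjusted p = 6.90e-08), whereas the thrombospondin gene Thbs1 rose from 250 ± 27.1 to 350 ± 77.5 CPM (0.49, adjusted p = 0.00223). With cisplatin, Vcam1, the endothelial ligand of Itga4 integrins, rose from 2.22 ± 0.655 to 34.8 ± 2.43 CPM (3.98, adjusted p = 2.63e-14) and the fibrillin gene Fbn1 from 2.99 ± 0.781 to 11.7 ± 1.72 CPM (1.97, adjusted p = 1.16e-09). Ccn1 and Spp1, which encodes osteopontin, fell with cisplatin, with log2 fold changes of -0.47 (adjusted p = 0.0402) and -0.29 (adjusted p = 0.0365). From cisplatin to the combination, Fbn1 fell to 0.667 ± 0.217 CPM (-4.13, adjusted p = 2.99e-15) and Npnt, the ligand of the Itga8 receptor, from 23.4 ± 1.99 to 3.17 ± 0.795 CPM (-2.87, adjusted p = 3.10e-13). Spp1 rose there from 1580 ± 162 to 3090 ± 324 CPM (0.97, adjusted p = 4.91e-08) and Ltbp1, a carrier of latent TGF-beta, by 0.49 (adjusted p = 0.0442).

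Of the 21 basement membrane partners, 18 were tested. With AU-15330, 2 rose and 10 fell, with cisplatin 6 rose and 4 fell, and from cisplatin to the combination 2 rose and 11 fell, with medians of -0.46, 0.08 and -0.87 where those of all genes were -0.003, -0.004 and 0.039. With cisplatin the shares, 33.3% higher and 22.2% lower, were near the 26.0% and 25.7% of all genes. With AU-15330 they were 11.1% and 55.6%, against 36.2% and 37.2% of all genes, and from cisplatin to the combination 11.1% and 61.1%, against 35.4% and 32.7%. Lgals3, the gene of galectin-3, which binds laminin and integrin glycans, fell from 183 ± 64.6 to 6.62 ± 2.31 CPM with AU-15330 (log2 fold change -4.78, adjusted p = 1.82e-14), and Tinagl1, a secreted basement membrane protein, from 268 ± 60.2 to 14 ± 2.85 CPM (-4.25, adjusted p = 2.26e-18). Hspg2, which encodes perlecan, rose from 884 ± 258 to 1499 ± 76.5 CPM (0.76, adjusted p = 3.84e-05), and the tetraspanin gene Cd151, whose product binds Itga3 and Itga6 receptors, rose by 0.33 (adjusted p = 0.000171) and, from cisplatin to the combination, by 0.32 (adjusted p = 0.000226). With cisplatin, Fras1, an extracellular matrix gene, rose from 0.778 ± 0.581 to 7.01 ± 3.19 CPM (3.14, adjusted p = 1.77e-07) and the nidogen gene Nid1, whose product links laminin to collagen, from 4.45 ± 0.693 to 14.9 ± 2.29 CPM (1.74, adjusted p = 9.24e-10), while Lgals3 and the tetraspanin gene Cd9 fell (log2 fold changes of -1.36 and -0.42). From cisplatin to the combination, Nid1 fell to 0.495 ± 0.190 CPM (-4.91, adjusted p = 3.31e-17), and Bcam, a receptor for the Lama5 chain, from 292 ± 18.5 to 29.5 ± 6.77 CPM (-3.30, adjusted p = 7.72e-15). The syndecan gene Sdc4 rose there from 555 ± 38.5 to 737 ± 65.2 CPM (0.41, adjusted p = 9.32e-05).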

How the data were processed

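RNA was measured by poly(A) sequencing in 24 libraries of 1 cell line under 4 treatments. The authors deposited raw counts per gene in 48 columns, 1 for each of 2 lanes of every library, and the lanes were summed. STAR 2.7.1a, DESeq2 1.36.0 and mm10 are named in the submitters' processing notes; the counting tool, its annotation and its use of strand are not given in the sources used here. The members and gene lists were chosen with earlier results of these data known. Genes were filtered with filterByExpr, scaled by TMM and fitted across all 4 groups with edgeR 4.0.16 in R 4.3.3 (quasi-likelihood test, 20 residual degrees of freedom, Benjamini-Hochberg adjustment over 12941 genes), after a check on simulated data. SE is the log2 fold change divided by the square root of F. Not every gene that the symbol rule or a marker list takes is reported here; every other member was accounted for, and lowest, median and highest libraries are given for members called with a log2 fold change of at least 1 in size and a mean of at least 1 CPM in a group. From each list of partners, up to 2 called genes per direction with the largest change were named in each of 3 comparisons, given a mean of at least 5 CPM in either group. Coordinates and exon lengths came from GENCODE vM21 (GRCm38), and promoters from RefSeq (GRCm38.p6). Alternatives were DESeq2 size factors, library totals without TMM, no low-count filter, the replicate number as a block, each replicate number left out, and the DESeq2 1.42.0 Wald test. A fit on replicates 1 to 3, one on replicates 4 to 6 and a term for this split were chosen after seeing the data.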

Additional observations from a re-analysis of the deposited data

Results flagged for a closer look

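Of 84 groups of 6 values, 4 held a library set apart from the others by Dixon's criterion, where chance gives about 1 in 20, or 4.2. In DMSO, replicate 5 was low for Itga3, at 619 CPM against 704 to 750 in the others, a gap of 0.644 of the range. With cisplatin, replicate 1 was low for Itga11, at 2.82 CPM against 4.92 to 5.72 (0.722), and for Itga5, at 166 CPM against 202 to 217 (0.711). With the combination, replicate 3 was high for Itga11, at 6.56 CPM against 4.02 to 4.88 (0.663).

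The effect of AU-15330 differed with and without cisplatin in 6 members by the interaction test of edgeR. In log2 units the effects differed by 0.82 for Itgb3, -0.30 for Itgb5, 1.71 for Itgb7, -4.20 for Lama3 (tested through its cisplatin libraries alone), -0.62 for Lama5 and -0.37 for Lamb2.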

How the results depend on the processing

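Each of the 105 values of 21 members in 5 comparisons was recomputed under 14 alternatives. The 12 calls of AU-15330 against DMSO and the 18 of the combination against cisplatin were all kept under the 11 planned ones. Leaving out a replicate number gave 10 to 12 calls for cisplatin against DMSO (13 with all), 12 to 13 for AU-15330 against DMSO, 18 to 18 for the combination against cisplatin, 7 to 10 for the combination against AU-15330 (10 with all) and 3 to 7 for the interaction (6 with all, 3 without replicate 4 and 3 without replicate 5). The replicate number as a block gave 18, 12, 18, 12 and 7 calls. Same-numbered libraries of different treatments correlated at -0.133 to 0.483 in their deviations from the group means, 23 of 36 pairs above 0.1. The mean was 0.145 for these pairs and -0.0269 for libraries of different numbers. Some deviation was thus shared by number. The main fit takes no account of it, and the block is given as an alternative. Replicates 1 to 3 alone gave 4 calls for the combination against AU-15330 and 1 for the interaction, with fewer libraries in the fit; replicates 4 to 6 alone gave 14 and 8. Among the AU-15330 calls, those lost in replicates 4 to 6 alone were Itga6 (-0.12) and Itgb4 (-0.29) against DMSO and Itgav (0.28) on cisplatin, and those lost in replicates 1 to 3 alone were Itgb8 (0.91), Lamb2 (-0.20) and Lamc1 (-0.46) on cisplatin. In replicates 4 to 6, Lamb1 changed sign, to 0.18 for cisplatin, 0.33 for AU-15330 and -0.42 for the interaction. Library totals without TMM moved the median of all genes to 0.126 for AU-15330 against DMSO and 0.104 for the combination against cisplatin. Depth limits the 15 untested members, and the sizes of Itgb2 and Lama3 changes.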
